A study of Rattus norvegicus with 20 samples.

Results

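The chemokines and receptors described here are 9 genes that guide monocytes and related leukocytes: the ligands Ccl2, Ccl7, Ccl3, Ccl4, Ccl20 and Cx3cl1 and the receptors Ccr1, Ccr2 and Cx3cr1. They were chosen by gene symbol, and all 9 were found among the 19060 genes of the expression table. Bulk RNA of rat lung had been sequenced in 20 libraries, 5 for each of 4 groups. Sham animals had their abdomen opened and the caecum handled without injury. CLP animals underwent caecal ligation and puncture, which spills gut bacteria into the abdomen and serves as a model of sepsis with acute respiratory distress syndrome (ARDS). Sham + VNS and CLP + VNS animals had the same operations together with vagus nerve stimulation (VNS) on the right side of the neck. No allele or transgene is given for any group, and strain, age, sex, stimulation settings and the time from surgery to collection are absent from the sources that were used. They do not say whether a library held RNA of 1 animal, and a library is called an animal below.

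Chemokines are small secreted proteins that draw leukocytes along a gradient by binding receptors coupled to G proteins. Ccl2 and Ccl7 act mainly through Ccr2, the receptor that lets monocytes leave the bone marrow and enter inflamed tissue. Ccl3 binds Ccr1, Ccl4 is its close relative, and Ccl20 binds Ccr6 on lymphocytes and dendritic cells. Cx3cl1 (fractalkine) is made as a membrane protein on endothelium and epithelium, from which proteases shed it, and its receptor Cx3cr1 marks patrolling monocytes and some macrophages and natural killer cells.

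Promoters of 6 of the 9 genes were found in the RefSeq table of assembly GRCr8, from 250 bases before to 50 after the start site. Those of 4 genes that were higher after CLP are shown for the regulatory motifs they hold, since inflammatory stimuli are known to act on chemokine genes through NF-kappaB and AP-1. Capitals mark matches on either strand to the kappaB consensus, to the AP-1 motif TGANTCA, to the TATA motif TATAAA or to GAGGAA, the core of the site of PU.1, a factor of myeloid cells.
Ccl7, GRCr8 chr10:67513845-67514144, plus strand: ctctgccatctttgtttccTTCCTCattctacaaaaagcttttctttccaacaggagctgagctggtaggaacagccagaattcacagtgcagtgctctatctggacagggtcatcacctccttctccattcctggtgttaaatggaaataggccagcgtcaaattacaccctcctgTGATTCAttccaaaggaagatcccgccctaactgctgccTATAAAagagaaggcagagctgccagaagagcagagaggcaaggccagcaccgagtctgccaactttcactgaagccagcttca
Ccl20, GRCr8 chr9:91836909-91837208, plus strand: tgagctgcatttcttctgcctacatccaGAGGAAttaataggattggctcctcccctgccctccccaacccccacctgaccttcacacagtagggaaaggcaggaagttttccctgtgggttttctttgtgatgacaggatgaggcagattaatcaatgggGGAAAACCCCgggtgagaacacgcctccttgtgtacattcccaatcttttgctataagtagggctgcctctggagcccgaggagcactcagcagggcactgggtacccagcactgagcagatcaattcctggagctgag
Cx3cl1, GRCr8 chr19:10242771-10243070, minus strand: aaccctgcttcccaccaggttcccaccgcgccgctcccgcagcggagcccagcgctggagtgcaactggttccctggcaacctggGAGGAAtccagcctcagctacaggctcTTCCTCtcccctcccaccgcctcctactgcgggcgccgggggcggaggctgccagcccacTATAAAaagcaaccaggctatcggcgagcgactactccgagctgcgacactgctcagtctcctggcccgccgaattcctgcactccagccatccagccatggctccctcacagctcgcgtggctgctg
Ccr1, GRCr8 chr8:132439217-132439516, minus strand: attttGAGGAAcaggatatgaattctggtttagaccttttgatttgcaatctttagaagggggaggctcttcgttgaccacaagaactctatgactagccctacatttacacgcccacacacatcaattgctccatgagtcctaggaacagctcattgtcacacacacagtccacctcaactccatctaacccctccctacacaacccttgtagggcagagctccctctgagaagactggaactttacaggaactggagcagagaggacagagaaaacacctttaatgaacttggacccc
The Ccl20 promoter held 1 kappaB match, whose first base lay 89 bases before the start, and such a match was present in 4.18% of 33469 promoters of this length. Ccl7 had a TGANTCA match 73 bases before the start (present in 7.33% of promoters) and TATAAA 34 bases before it (present in 14.2%). In Cx3cl1, TATAAA began 78 bases before the start. GAGGAA occurred in all 4 sequences and in 27.6% of promoters, while the Ccr2 and Cx3cr1 promoters held none of the 4 motifs. No overlap between different motifs was found in these sequences, and a match is a description of letters, not of binding. In the same reference Ccl2 is followed directly by Ccl7, and Ccl3 by Ccl4, on chromosome 10, while Ccr1 and Ccr2 lie close together on chromosome 8.

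The libraries were of even depth, with 13729646 to 14453181 counts each. Levels of a gene are given in CPM (counts scaled to the library total, adjusted by TMM, a scaling on the bulk of genes). Differences are log2 fold changes ± SE from edgeR's quasi-likelihood test over all 20 libraries, with p-values adjusted by Benjamini-Hochberg over 14794 tested genes and a gene called below 0.05. Lung markers were high in every library: the summed level of 6 alveolar type 2 genes was 18862 to 33951 CPM. Sham replicate 1 stood apart in adipocyte markers, with a summed level of 884 CPM for 5 genes against 13.1 to 36.1 CPM in the other Sham libraries. In Sham + VNS, replicate 2 was highest, at 274 CPM. Results that rest on Sham replicate 1 are given with and without it. For Ccl2 and Ccl7 in the comparisons with Sham + VNS, ranges with any 1 library left out are given. The labels do not say that animals were processed in separate batches. The edgeR p-values set a difference against the spread between libraries within groups, estimated over the 4 groups together.

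Of the 9 genes, 8 passed the count filter, and 6 of these 8 rose from Sham to CLP: Ccl2, Ccl7, Ccl3, Ccl20, Cx3cl1 and Ccr1. The receptors Ccr2 and Cx3cr1 did not pass the test. In this comparison 40.3% of the 14794 genes passed in either direction and 19.8% as higher. The groups did not overlap for 5 of the 8, all but Ccl20, Ccr2 and Cx3cr1, where 13.4% of all genes were higher without overlap. The median log2 change of the 8 was 1.69, beside -0.01 over all tested genes. Ccl7 and Ccl20 reached the filter mainly through the CLP-operated animals, so their presence among the tested genes is not independent of their rise. In whole lung, a change in the number of cells of a type and a change in RNA per cell cannot be told apart.

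**Figure D1:**
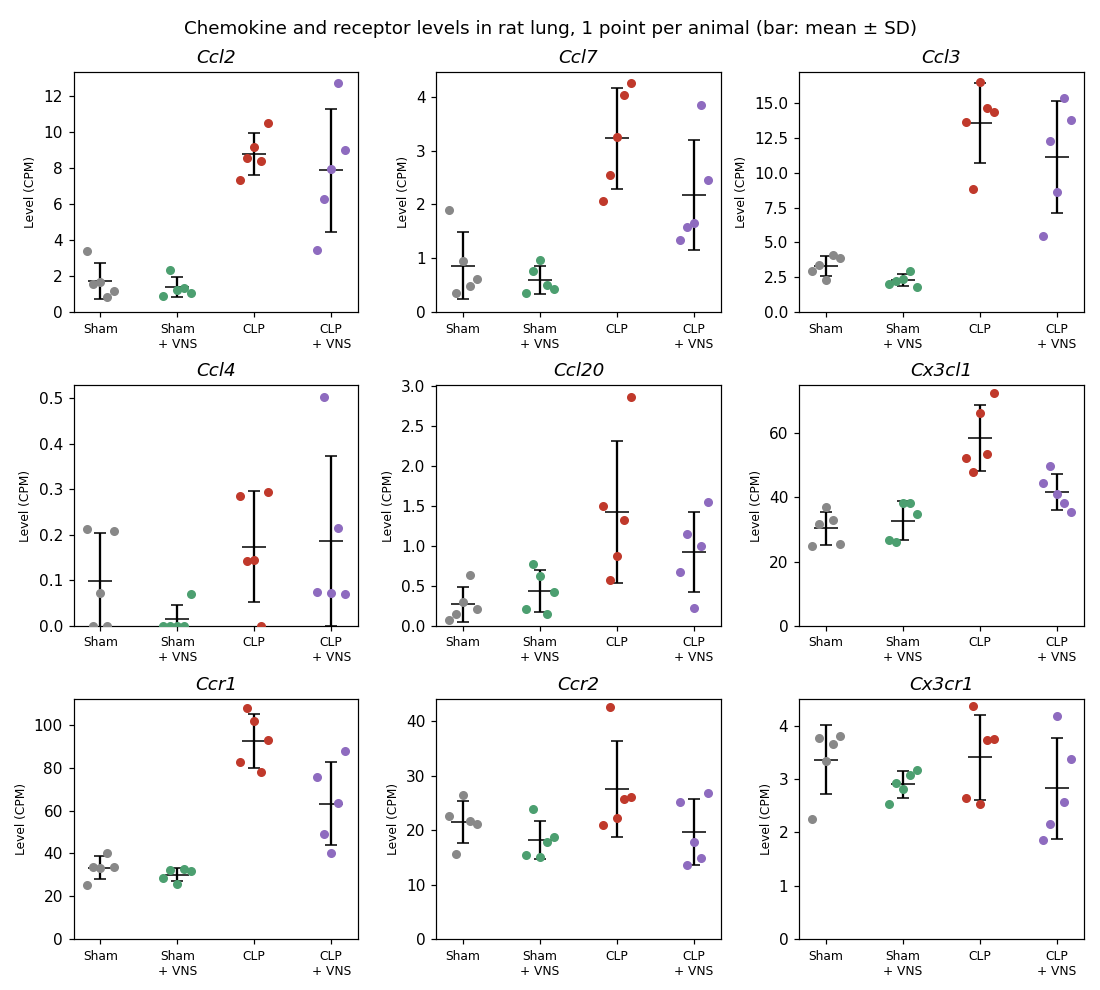
Level in CPM (y axis, linear from 0) of each of the 9 genes by group, with 1 point per animal and bars for the mean ± SD of 5 animals. The CLP and CLP + VNS animals lie above both sham groups for Ccl2 and Ccl3, and the 4 groups overlap for Cx3cr1. For Ccr1, CLP + VNS replicate 5 (40.09 CPM) lies just below Sham replicate 4 (40.18 CPM), and the other CLP-operated animals lie above both sham groups.

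Among the ligands of Ccr2, Ccl2 (gene 24770) stood at 3.39, 1.54, 1.67, 0.844 and 1.17 CPM in Sham replicates 1 to 5 and at 7.36, 8.55, 9.20, 8.43 and 10.5 CPM in CLP replicates 1, 3, 4, 5 and 6. Every CLP animal was above every Sham animal, and the highest Sham value belonged to the library rich in adipocyte RNA. Ccl2 rose by 2.35 ± 0.34 (edgeR adjusted p = 2.72e-05), and by 2.74 (adjusted p = 5.49e-06) without Sham replicate 1. Ccl7 (gene 287561) stood at 1.91, 0.350, 0.944, 0.493 and 0.622 CPM in Sham and 2.07, 2.54, 3.26, 4.03 and 4.26 CPM in CLP, in the same order of replicates. Sham replicate 1 again came closest to the CLP animals. Ccl7 rose by 1.90 ± 0.39 (adjusted p = 0.000787), and by 2.41 (adjusted p = 7.36e-05) without that library. Whether the adipocyte RNA has a part in these 2 levels was not tested.

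Ccl3 (gene 25542), a ligand of Ccr1, stood at 2.96, 3.36, 2.32, 4.08 and 3.87 CPM in Sham and 13.65, 8.83, 16.5, 14.7 and 14.3 CPM in CLP. No Sham animal reached the lowest CLP animal, replicate 3. The rise was 2.03 ± 0.24 (adjusted p = 2.90e-06). Ccl20 (gene 29538), the ligand of Ccr6, was near the limit of detection, with 1 to 9 counts per library in Sham and 8 to 39 in CLP. Its levels were 0.0706, 0.140, 0.290, 0.633 and 0.207 CPM in Sham and 1.501, 0.565, 0.869, 1.32 and 2.87 CPM in CLP. Sham replicate 4 lay above CLP replicate 3, so the groups overlapped by 1 animal. Ccl20 rose by 2.37 ± 0.57 (adjusted p = 0.00277).

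Ccl4 (gene 116637), a close relative of Ccl3, had 0 to 7 counts per library and did not pass the filter. Summed over 5 libraries it had 7 counts in Sham, 1 in Sham + VNS, 12 in CLP and 13 in CLP + VNS, while Ccl3 had 939 in CLP and 776 in CLP + VNS. Its mean level was 0.0983 ± 0.106 CPM in Sham and 0.173 ± 0.122 CPM in CLP (SD, n = 5; exact two-sided permutation test p = 0.270, adjusted over 4 tests 0.360). In CLP + VNS it was 0.187 ± 0.187 CPM against 0.0141 ± 0.0315 CPM in Sham + VNS (exact p = 0.0159, adjusted 0.0635). The smallest p that 5 against 5 animals can give is 0.00794, and no difference in Ccl4 passed the adjusted threshold. The deposited TPM values of Ccl4, which reached 28.8 for 7 counts, are not comparable with those of the other genes. The ratio of its counts to its FPKM corresponds to an effective transcript length of 21.6 bases, against 444 to 498 bases for Ccl2, Ccl3, Ccl7 and Ccl20. Such a length below 100 bases occurred in 167 of 19057 genes.

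Cx3cl1 (gene 89808) was the most abundant ligand in both sham groups per transcript length, with 14.9 ± 2.06 TPM in Sham. It stood at 24.9, 31.6, 37.0, 32.9 and 25.4 CPM in Sham and 52.3, 48.1, 66.4, 53.5 and 72.6 CPM in CLP. The groups were clearly parted, with a gap between 37.0 and 48.1 CPM. The rise was 0.95 ± 0.14 (adjusted p = 4.14e-05).

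Cx3cl1 RNA was divided over 2 transcripts in the table per transcript. NM_134455 held 60.2% ± 8.76 of its TPM in Sham, 56.1% ± 3.30 in Sham + VNS, 55.5% ± 4.67 in CLP and 57.0% ± 7.50 in CLP + VNS, and XM_008772329 held the rest (SD, n = 5). The shares overlapped between all groups, and the mean of both forms was highest in CLP, at 14.9 ± 3.06 and 11.9 ± 2.15 TPM against 8.89 ± 1.47 and 5.97 ± 1.90 TPM in Sham. Reads shared by transcripts of a gene are divided by an estimate, so these shares are less certain than gene levels. Ccr2 was listed with 7 transcripts, of which XM_039082060 held 82.9% to 94.2% of its TPM in the 4 group means. Ccl20 had 2 transcripts, and the other 6 genes had 1 each.

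**Figure D2:**
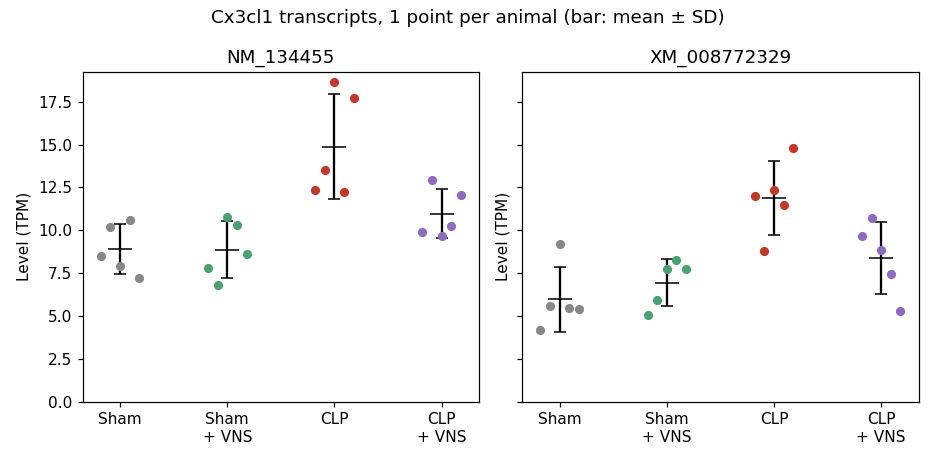
TPM (y axis, linear from 0) of the 2 Cx3cl1 transcripts by group, with 1 point per animal and bars for the mean ± SD of 5 animals. In CLP, NM_134455 averages 14.9 TPM and XM_008772329 11.9 TPM, and both means are lower in the other 3 groups.

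Ccr1 (gene 57301), a receptor for Ccl3 carried by monocytes and neutrophils, was the most abundant of the 9 genes per transcript length in every group. It stood at 25.1, 33.6, 33.4, 40.2 and 33.9 CPM in Sham and 82.5, 108, 102, 77.8 and 92.9 CPM in CLP. No Sham animal reached above 40.2 CPM and no CLP animal lay below 77.8 CPM. Ccr1 rose by 1.48 ± 0.17 (adjusted p = 2.58e-06). The summed level of 12 neutrophil genes moved with it, from 353 to 881 CPM in Sham to 2996 to 4918 CPM in CLP, and 10 of its 11 tested genes rose, led by the granule gene Ngp (5.57 ± 0.84) and the decoy receptor Il1r2 (3.78 ± 0.42), while Retnlg fell. Ltf, a further granule gene, had 1 count at most in any library. The neutrophils' part in the Ccr1 level was not tested.

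Ccr2 (gene 60463) stood at 22.6, 15.7, 26.4, 21.7 and 21.1 CPM in Sham and 21.0, 42.7, 22.2, 25.8 and 26.1 CPM in CLP. One CLP animal, replicate 3, stood far above the others, and the remaining 4 lay within the Sham range. The difference was 0.36 ± 0.21 (adjusted p = 0.189), and 0.15 (adjusted p = 0.578) without that animal, its lowest value when any 1 library was left out. Cx3cr1 (gene 171056), the receptor of Cx3cl1, stood at 2.26, 3.78, 3.34, 3.66 and 3.80 CPM in Sham and 2.64, 4.38, 2.53, 3.74 and 3.75 CPM in CLP. The difference was 0.02 ± 0.21 (adjusted p = 0.956), with an approximate 95% interval of the log2 change from -0.43 to 0.46. Its sign turned with the scaling, to -0.03 by total count alone, so no direction is given.

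Monocyte markers chosen for the same tissue were not uniform. The counts of marker genes below are to be read against the 40.3% of all tested genes called in CLP against Sham. Of 10 classical monocyte genes 7 rose and none fell in CLP, led by Vcan, a matrix proteoglycan (2.10 ± 0.31), and the lipopolysaccharide co-receptor Cd14 (1.40 ± 0.14), but their summed level overlapped, at 14010 to 19318 CPM in Sham and 14662 to 19676 CPM in CLP. Lyz2, not called, made up most of that sum (14993 ± 2215 CPM in Sham and 15840 ± 1613 CPM in CLP), so it says little of the other 9 genes. Of 7 non-classical monocyte genes 5 rose, led by the transcription factors Pou2f2 (1.04 ± 0.22) and Cebpb (0.94 ± 0.10). The other 3 were Nr4a1 (0.84 ± 0.15), Itgal (0.43 ± 0.11) and Treml4 (0.82 ± 0.31, adjusted p = 0.0423). Treml4 lost its call when any one of Sham replicates 1, 3 and 4 and CLP replicates 1, 3 and 5 was left out (adjusted p 0.0677 to 0.105). Alveolar macrophage genes rose in 2 of 6 cases, Mrc1 (0.99 ± 0.15) and Olr1 (0.67 ± 0.16). Their summed level was 1247 CPM in the adipocyte-rich Sham replicate 1 and 496 to 649 CPM in the other Sham libraries. In CLP it was 867 to 1233 CPM. T cell genes fell in 7 of 7 cases, with a median of -1.41, led by Cd3d (-1.70 ± 0.30) and Cd5 (-1.67 ± 0.28). Of 7 natural killer genes 1, Tbx21, fell. Among 7 endothelial genes Cldn5 rose while Kdr, Emcn and Cdh5 fell. Ager, Rtkn2 and Aqp5 fell among 5 alveolar type 1 genes, and Sftpb and Napsa rose among 6 of type 2. The 3 tested adipocyte genes, Cfd, Cidec and Adipoq, passed as lower with the adipocyte-rich Sham replicate 1 included, and none did without it (Cfd 0.11, Cidec -0.39 and Adipoq -6.05 on the log2 scale, the last with adjusted p = 0.139). The part of these cells in the receptor levels was not tested.

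In stimulated animals, CLP + VNS against Sham + VNS, 4 of the 8 tested genes rose, Ccl2, Ccl3, Ccl7 and Ccr1, and none fell. Of all genes 27.3% were called here and 13.9% were called higher. The same 4 genes were those whose groups did not overlap, as was so for 9.65% of all genes in that direction. Their median log2 change with the other 4 was 1.07, beside -0.01 over all genes. This comparison shares no animals with CLP against Sham. Beside the rise, 8 of 11 neutrophil genes were higher and Retnlg lower, with sums of 317 to 695 CPM in Sham + VNS and 1665 to 4610 CPM in CLP + VNS. T cell genes were lower in 5 of 7 cases and alveolar type 1 genes in 4 of 5. Of 10 classical monocyte genes 4 were higher, Cd14, Vcan, Fn1 and Plac8, and Csf1r was lower. Of 7 non-classical ones 4 were higher, Cebpb, Pou2f2, Nr4a1 and Ace. Over 28 alternative settings the call was lost in 11 for Plac8, 9 for Ace, 4 for Fn1 and 1 for Vcan. The part of these cells was not tested.

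Ccl2 stood at 0.914, 2.37, 1.24, 1.36 and 1.06 CPM in Sham + VNS replicates 1 to 5 and at 3.43, 6.31, 7.93, 12.8 and 8.99 CPM in CLP + VNS replicates 1, 3, 5, 8 and 11. The stimulated CLP animals were spread over a wider range than the unstimulated ones, with a coefficient of variation of 43.6% against 13.1%. The rise was 2.50 ± 0.35 (adjusted p = 3.38e-05), and 2.26 to 2.78 with any 1 library left out. The highest Sham + VNS value came from replicate 2, the library of that group with the most adipocyte RNA, as had been so in Sham. Ccl7 stood at 0.352, 0.765, 0.961, 0.500 and 0.422 CPM in Sham + VNS and 1.34, 1.58, 1.66, 3.85 and 2.46 CPM in CLP + VNS, a rise of 1.84 ± 0.42 (adjusted p = 0.00250). With any 1 library left out its rise was 1.54 to 2.08. For Ccl2 and Ccl7 alike, CLP + VNS replicate 8 was highest and replicate 1 lowest.

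Ccl3 stood at 2.04, 2.23, 2.40, 2.93 and 1.83 CPM in Sham + VNS and 5.45, 12.3, 8.65, 15.4 and 13.8 CPM in CLP + VNS. It shared the highest and the lowest CLP + VNS animal with Ccl2 and Ccl7. The rise was 2.28 ± 0.25 (adjusted p = 2.37e-06). Ccr1 stood at 28.5, 32.2, 25.5, 32.5 and 31.6 CPM in Sham + VNS and 75.6, 48.8, 40.1, 63.5 and 87.8 CPM in CLP + VNS, a rise of 1.07 ± 0.17 (adjusted p = 0.000133). Here the order of animals was another one: replicate 1, lowest in the ligands Ccl2, Ccl7 and Ccl3, was the second highest in Ccr1. The summed neutrophil level was 3122, 2172, 1665, 2296 and 4610 CPM in these 5 animals, which puts them in the same order as Ccr1 does. In CLP the order of animals differed between the 2 measures, although replicate 3 was highest in both.

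Cx3cl1 stood at 26.7, 26.02, 38.2, 38.2 and 34.9 CPM in Sham + VNS and 44.5, 49.9, 41.1, 38.4 and 35.3 CPM in CLP + VNS. The groups overlapped, and the difference of 0.35 ± 0.14 did not pass the adjusted threshold (adjusted p = 0.0785). Ccl20 stood at 0.211, 0.765, 0.618, 0.143 and 0.422 CPM in Sham + VNS and 0.672, 1.15, 0.216, 0.998 and 1.54 CPM in CLP + VNS (1.07 ± 0.55, adjusted p = 0.167). Its groups overlapped through CLP + VNS replicates 1 and 5, which had 9 and 3 counts and lay below Sham + VNS replicate 2. Ccr2 lay at 15.1 to 23.9 CPM in Sham + VNS and 13.6 to 26.8 CPM in CLP + VNS (0.11 ± 0.21, adjusted p = 0.750). Cx3cr1 lay at 2.53 to 3.17 and 1.87 to 4.18 CPM (-0.04 ± 0.21, adjusted p = 0.929). Both receptors thus had wider ranges after CLP that enclosed those of Sham + VNS.

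**Figure D3:**
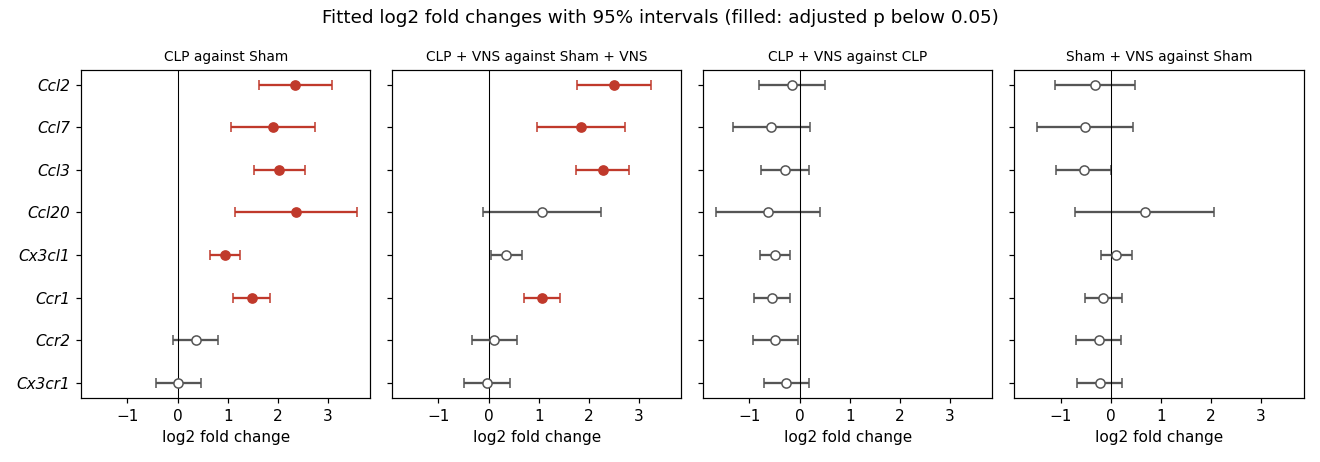
Fitted log2 fold changes (x axis) of the 8 tested genes in 4 comparisons, with approximate 95% intervals and filled points where the adjusted p was below 0.05. Filled points occur in the comparisons of CLP with sham operation, 6 without and 4 with stimulation, and all 8 estimates of CLP + VNS against CLP lie below 0.

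Stimulation within CLP animals was tested by CLP + VNS against CLP. No gene of the 8 was called by edgeR, where 0.0270% of all genes were called, and DESeq2 and limma called none of the 8 either. All 8 estimates were below 0, which was so for 48.6% of all tested genes, and their median was -0.49 beside 0.00 over all genes. Ccl2 turned to 0.0258 without CLP + VNS replicate 1. No cell marker was called by edgeR either. The median log2 difference was -0.48 over 11 neutrophil genes, -0.41 over 6 alveolar macrophage genes, -0.39 over 7 non-classical monocyte genes and 0.36 over 7 endothelial genes. It was -0.20 over classical monocyte genes, 0.14 over T cell genes and -0.03 over natural killer genes. Over alveolar type 1, alveolar type 2 and adipocyte genes it was -0.02, -0.07 and 0.06. The part of these cell types in the members' estimates was not tested. At an unadjusted p below 0.05 there were 3, Ccr1, Ccr2 and Cx3cl1, a share to be read against 13.0% of all genes at that level. The comparison shares the CLP animals with CLP against Sham, so a high CLP library raises one value and lowers the other.

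Ccr1 was at 92.6 ± 12.7 CPM in CLP and 63.2 ± 19.3 CPM in CLP + VNS (SD, n = 5), a difference of -0.55 ± 0.17 (adjusted p = 0.190). The groups overlapped: 4 of 5 stimulated animals lay below the lowest CLP animal, at 77.8 CPM, and replicate 11 lay above it at 87.8 CPM. Cx3cl1 was at 58.6 ± 10.4 CPM in CLP and 41.8 ± 5.64 CPM in CLP + VNS (-0.49 ± 0.14, adjusted p = 0.187). A single stimulated animal, replicate 3 at 49.9 CPM, exceeded the lowest CLP animal at 48.1 CPM. Ccr2 was at 27.6 ± 8.73 against 19.7 ± 5.98 CPM (-0.49 ± 0.21, adjusted p = 0.340), and the difference was -0.28 without CLP replicate 3.

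For the CC ligands the intervals of the difference spanned 0. Ccl2 was at 8.81 ± 1.16 CPM in CLP and 7.88 ± 3.44 CPM in CLP + VNS (-0.16 ± 0.31, adjusted p = 0.873). The approximate 95% interval of its log2 difference, -0.81 to 0.50, corresponds to ratios of 0.569 to 1.41. Ccl3 was at 13.6 ± 2.87 and 11.1 ± 4.03 CPM (-0.29 ± 0.22, adjusted p = 0.608; interval -0.76 to 0.18). Ccl7 was at 3.23 ± 0.938 and 2.18 ± 1.02 CPM (-0.57 ± 0.36, adjusted p = 0.529; interval -1.33 to 0.20). For Ccl20 (-0.63 ± 0.49) and Cx3cr1 (-0.27 ± 0.21) the adjusted p was 0.613 and 0.621. With any 1 library left out these estimates ran from -0.44 to -0.12 for Ccl3 (without CLP + VNS replicate 1 at the upper end), from -0.90 to -0.21 for Ccl20 (without CLP replicate 6) and from -0.45 to -0.16 for Cx3cr1 (without CLP + VNS replicate 1). These intervals do not show that stimulated and unstimulated CLP animals had the same levels.

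In sham-operated animals, Sham + VNS against Sham, edgeR called none of the 8, and 0.00% of all genes. No member had an unadjusted p below 0.05, against 8.01% of all genes, and DESeq2 and limma called none of the 8. Closest to that level was Ccl3, which stood at 3.32 ± 0.707 CPM in Sham and 2.28 ± 0.417 CPM in Sham + VNS (-0.54 ± 0.26, edgeR adjusted p = 0.625). Ccl2 differed by -0.31 ± 0.38 (adjusted p = 0.846), which became 0.08 without Sham replicate 1. Ccl7 differed by -0.51 ± 0.45 (adjusted p = 0.785), and by -0.0035 without that library. With any 1 library left out, Ccl2 ran from -0.59 to 0.08 and Ccl7 from -0.75 to -0.0035. Cx3cl1 and Ccr1 differed by 0.11 ± 0.15 and -0.14 ± 0.17, with adjusted p-values of 0.860 and 0.843.

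The interaction asks whether the CLP effect differs between stimulated and unstimulated animals. It was called for none of the 8 by edgeR and for 0.00% of all genes, and by neither DESeq2 nor limma for any of the 8. Cx3cl1 alone had an unadjusted p below 0.05, where 8.23% of all genes had one. Its CLP effect was smaller under stimulation by 0.60 ± 0.20 on the log2 scale (interaction -0.60, edgeR adjusted p = 0.512). Thus the call of Cx3cl1 and of Ccl20 in CLP against Sham and its absence in CLP + VNS against Sham + VNS does not show that the effects differ (Ccl20 interaction -1.30 ± 0.81, adjusted p = 0.708). For Ccl2, Ccl3, Ccl7 and Ccr1 the interaction estimates were 0.15 ± 0.48, 0.25 ± 0.34, -0.05 ± 0.63 and -0.41 ± 0.24.

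Per transcript length, in deposited TPM and without Ccl4, the order of levels in Sham was Ccr1 (31.4), Cx3cl1 (14.9), Ccl3 (10.9), Ccr2 (8.68), Ccl2 (5.38), Cx3cr1 (4.83), Ccl7 (2.54) and Ccl20 (0.798). Only Ccr1 was separate from its next neighbour over all 5 Sham animals, and the other neighbours overlapped. In CLP the order was Ccr1 (82.4), Ccl3 (41.9), Cx3cl1 (26.8), Ccl2 (25.6), Ccr2 (10.6), Ccl7 (8.88), Cx3cr1 (4.58) and Ccl20 (3.96). There Ccr1 was separate from Ccl3, and Ccl2 from Ccr2. Ccl2 had therefore moved from below Ccr2 to above it, with no overlap in CLP (21.8 to 30.0 against 8.28 to 16.3 TPM). The order in CLP + VNS differed from that in CLP by an exchange of Cx3cl1 (19.4 TPM) and Ccl2 (23.2 TPM), which overlapped.

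Pairs of the 9 genes were compared by the root mean square difference of their centred log2 levels over the 20 libraries, where a small value means a small difference, as 2 genes that vary little also have. Of 36 pairs, the closest were Ccr2 and Cx3cr1 (0.40), Ccr1 and Cx3cl1 (0.46) and Ccl2 and Ccl7 (0.48). Against 13292 other genes the median of this measure was 0.37 for Cx3cr1, 0.43 for Ccr2, 0.47 for Cx3cl1 and 1.30 for Ccl2, so the first pair was no closer than the usual gene is to Cx3cr1, and the second hardly closer than the usual gene is to Cx3cl1. In all 20 libraries Ccl2 had more TPM than its neighbour Ccl7, by a ratio of 1.82 to 4.67 in Sham and 2.21 to 3.76 in CLP. The difference in this ratio between CLP and Sham did not pass the test (exact two-sided permutation p = 0.230, adjusted over 16 tests of 4 ratios 0.614). The ratio of Ccr1 to Ccr2 was 2.61 to 5.06 in Sham and 5.90 to 10.6 in CLP, with no overlap, and 3.14 to 4.35 in Sham + VNS against 5.25 to 9.95 in CLP + VNS. Both differences had an exact permutation p of 0.00794, the smallest that 5 against 5 animals can give, and 0.0635 after adjustment. These ratios were chosen after the levels of the genes had been seen.

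**Figure D4:**
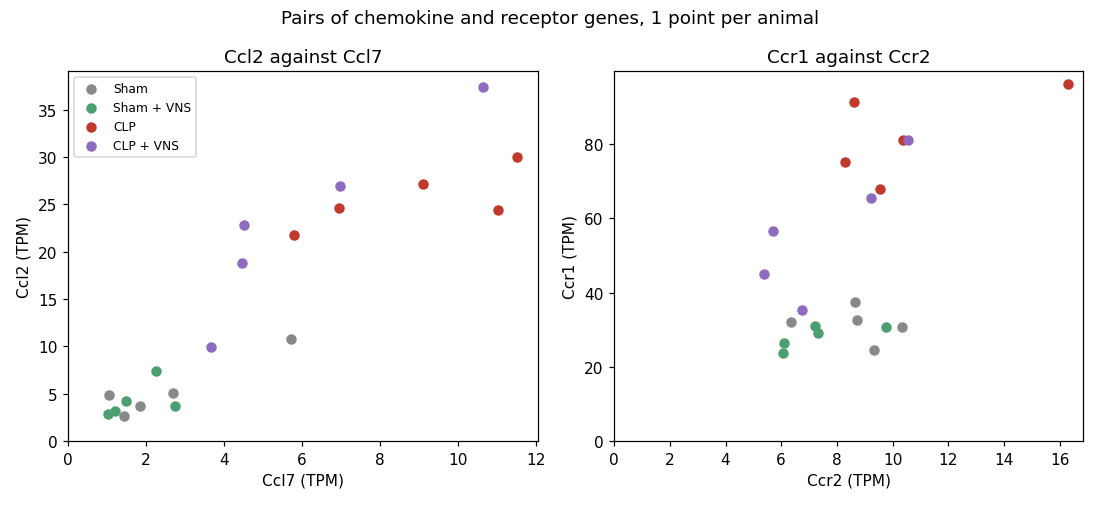
TPM of Ccl2 against Ccl7 (left) and of Ccr1 against Ccr2 (right), both axes linear from 0, with 1 point per animal coloured by group. CLP-operated animals lie above sham-operated ones in Ccr1 at like levels of Ccr2, with Ccr1 to Ccr2 ratios of 5.25 to 10.6 against 2.61 to 5.06.

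By the same measure, 13292 other genes, averaging 1 CPM or more, were set beside 4 of the members. The closest genes were picked by their levels in these same libraries, so the changes given for them largely follow from that choice. Closest to Ccl2 were Slpi, a secreted protease inhibitor (0.51), Sod2, the mitochondrial superoxide dismutase (0.53), and Osmr, the oncostatin M receptor (0.54). Their rises in CLP against Sham were 2.51 ± 0.32, 2.44 ± 0.13 and 1.79 ± 0.16. Closest to Ccr2 were the leukocyte genes Selplg, a ligand of selectins (0.19), Cd37, a tetraspanin (0.20), and Fmnl1, a formin (0.23). In CLP against Sham, Selplg rose by 0.39 ± 0.14 (edgeR adjusted p = 0.0342) and Fmnl1 by 0.44 ± 0.13 (adjusted p = 0.0132). Cd37 was not called there (0.19 ± 0.17, adjusted p = 0.386). In CLP + VNS against CLP Selplg, Cd37 and Fmnl1 stood at -0.46 ± 0.14, -0.37 ± 0.17 and -0.41 ± 0.13, none of them called. Closest to Cx3cl1 were Pi4k2b (0.17), Bub1 (0.18) and Acsl4 (0.18), and to Cx3cr1 Zfp174 (0.22), H2aj (0.23) and Cebpzos (0.25).

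Of the other CC and XC chemokine ligands, 9 of 15 were tested. In CLP against Sham 1 rose and 3 fell, where 40.3% of all tested genes were called in either direction. The one that rose was Ccl12, a further ligand of Ccr2 that lies near Ccl7 and Ccl11 in the reference. It went from 0.298 ± 0.131 CPM in Sham to 1.79 ± 0.584 CPM in CLP (2.56 ± 0.43, adjusted p = 0.000109), without overlap, and rose by 2.54 ± 0.45 in CLP + VNS against Sham + VNS (adjusted p = 0.000291). It was the one ligand of the list called there, where 27.3% of all tested genes were called. Like Ccl7 and Ccl20, it reached the filter mainly through the CLP-operated animals, so its presence among the tested genes is not independent of its rise. Its levels were as low as those of Ccl20, and its sequence is related to Ccl2 and Ccl7, so shared reads may be divided among them. The eosinophil attractant Ccl11 fell from 13.8 ± 2.39 to 5.09 ± 2.27 CPM (-1.44 ± 0.24, adjusted p = 9.17e-05). It was also at 5.28 ± 0.780 CPM in Sham + VNS, a difference from Sham of -1.39 ± 0.24 without overlap that edgeR did not call (adjusted p = 0.176) and DESeq2 did (adjusted p = 5.57e-05).

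The other 2 that fell were Ccl19 (-0.93 ± 0.35, adjusted p = 0.0423) and Ccl21 (-0.70 ± 0.28, adjusted p = 0.0494), which draw T cells and dendritic cells through Ccr7. Both calls were fragile. Over their alternatives the adjusted p ran from 0.0136 to 0.119 for Ccl19 and from 0.0123 to 0.224 for Ccl21. Both calls ended when any one of Sham replicates 1, 4 and 5 and CLP replicates 1, 4, 5 and 6 was left out, and that of Ccl19 also without Sham replicate 2. Without Sham replicate 5 Ccl21 stood at -0.38. Leaving out some libraries of the stimulated groups also ended them, at adjusted p of up to 0.0516 for Ccl19 (CLP + VNS replicate 3, Sham + VNS replicate 3 or 5) and 0.0532 to 0.0584 for Ccl21 (any CLP + VNS library, Sham + VNS replicate 3, 4 or 5). Ccl19 was at 1.44 ± 0.283 CPM in Sham, 0.748 ± 0.325 CPM in CLP and 0.715 ± 0.266 CPM in Sham + VNS (SD, n = 5). It was thus as low in Sham + VNS (0.281 to 0.999 CPM, against 1.16 to 1.90 CPM in Sham) as in CLP. Its difference between Sham + VNS and Sham was called by none of edgeR, DESeq2 and limma. Ccl5, Ccl6, Ccl9, Ccl24 and Ccl27 were not called in CLP against Sham.

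Of 9 other receptors 7 were tested, and in CLP against Sham none rose and 3 fell. Of all tested genes 40.3% were called in that comparison, and 27.3% in CLP + VNS against Sham + VNS. Ccr7 fell (-0.95 ± 0.24, adjusted p = 0.00419), as did Ccr10 (-0.99 ± 0.34, adjusted p = 0.0253) and Ccrl2 (-0.36 ± 0.12, adjusted p = 0.0275). Ccr10 lost its call when one of Sham replicates 2 and 4 and CLP replicates 4 and 6 was left out (adjusted p 0.0526 to 0.0773), and Ccrl2 when one of Sham replicates 4 and 5 and CLP replicates 1 and 5 was (0.0531 to 0.0872). In stimulated animals none rose, while Ccr7 (-0.77 ± 0.25, adjusted p = 0.0256) and Ccr9 (-2.09 ± 0.34, adjusted p = 0.000159) fell. The call of Ccr7 there was lost without CLP + VNS replicate 1, 5 or 8 or Sham + VNS replicate 2 or 4 (0.0521 to 0.0753). Ccr9 and Ccr10 reached the filter mainly through the sham-operated animals, so their presence among the tested genes is not independent of their fall. Ccr6, the receptor of Ccl20, was not called in CLP against Sham (-0.15 ± 0.24, adjusted p = 0.658).

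**Figure D5:**
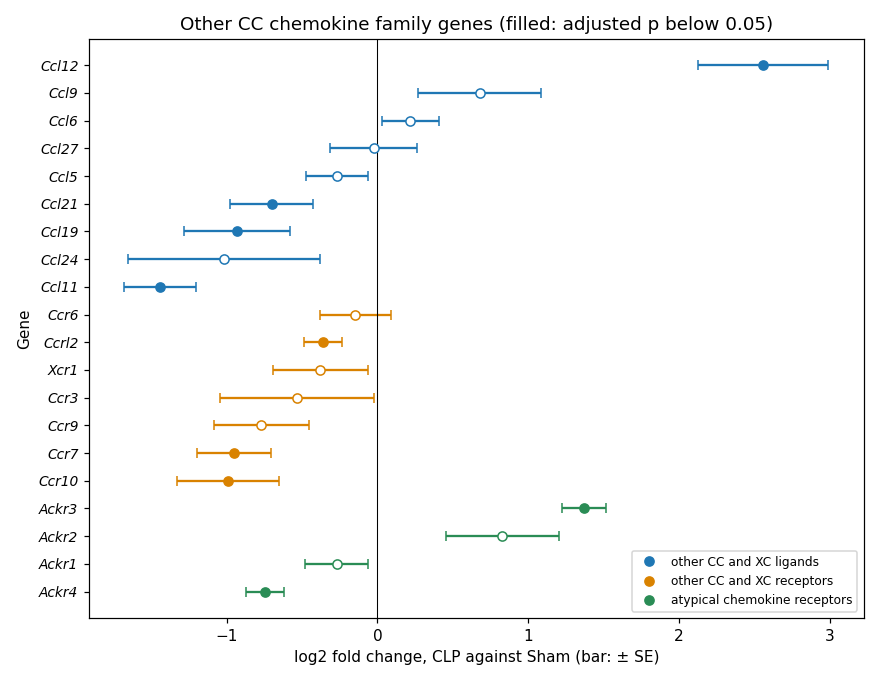
Log2 fold change ± SE (x axis) in CLP against Sham of the tested genes (y axis) among the other CC and XC ligands, receptors and atypical receptors, with filled points where the adjusted p was below 0.05. Ccl12 at 2.56 and Ackr3 at 1.37 lie farthest to the right and Ccl11 at -1.44 farthest to the left.

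Atypical receptors bind chemokines without the usual G protein signal, and some of them clear the chemokines they bind. Of 4 tested, Ackr3 rose in CLP against Sham from 129 ± 33.2 to 334 ± 61.2 CPM (1.37 ± 0.15, adjusted p = 1.21e-06) and Ackr4 fell (-0.74 ± 0.13, adjusted p = 0.000114). In stimulated animals Ackr3 (1.35 ± 0.15) and Ackr2, which takes up inflammatory CC chemokines (1.50 ± 0.38, adjusted p = 0.00613), rose and none fell. Of 5 genes of fractalkine shedding, Rhbdf2, a partner of the protease Adam17, rose in both comparisons, by 0.72 ± 0.08 and 0.55 ± 0.08, and the proteases Adam10 and Adam17, Rhbdf1 and the inhibitor Timp3 were not called. Of 25 genes of signalling below chemokine receptors 9 rose and 3 fell in CLP against Sham and 8 rose and 3 fell in stimulated animals, with medians of 0.19 and 0.11. Over all tested genes, 40.3% and 27.3% were called in these 2 comparisons. Among the genes of this list called in CLP against Sham, the largest changes were in Rgs1, which shortens G protein signals, at 2.09 ± 0.32, and in Rac2, a GTPase of leukocytes, at 0.81 ± 0.10. Of the 50 tested genes in these 5 lists edgeR called 0 in CLP + VNS against CLP, in Sham + VNS against Sham and in the interaction, with 12, 5 and 6 at an unadjusted p below 0.05. Of all tested genes 13.0%, 8.01% and 8.23% were at that level. DESeq2 called 4 in the first (Ackr4, Ccrl2, Dock2 and Vav1), Ccl11 in the second and 0 in the interaction, and limma called 0 in each.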

How the data were processed

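Rat lung RNA was compared in 4 groups of 5 libraries, taken from the labels. Per the labels' protocols, poly(A) RNA was made into strand-specific libraries. The authors deposited values per gene and per transcript. Per the file headers these are FPKM and TPM values, scaled by the authors for length and library size, estimated counts (91.5% of gene values whole), and a normalized signal of counts times 1 factor per library, not used in any test. Per the submitters' processing notes the build was mRatBN7.2; the aligner, counter and annotation were not given in the sources used here.

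Counts were rounded. Genes passed edgeR's filterByExpr (minimum count 10), which kept 14794. TMM scaling and the quasi-likelihood model (edgeR 4.0.16, limma 3.58.1, R 4.3.3; 16 residual degrees of freedom) gave 5 comparisons, called at a Benjamini-Hochberg adjusted p below 0.05. SE is the absolute log2 fold change over the root of F, and approximate 95% intervals use 16 degrees of freedom. Ccl4, below the filter, had exact permutation tests. Alternatives were other scalings, DESeq2 1.42.0, no filter, fewer groups, a replicate block, limma on TPM and each library left out. The scripts were tested on simulated data.

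The members, 15 lists of other genes (131 entries, 1 further gene not being reported here) and the rule for named genes were chosen with earlier results of these data known. The rule names all members, the 3 genes most like each of 4 members, the 2 called genes with the largest change in a list, and every called gene where a list had 5 or fewer. Promoter sequences are RefSeq's of GRCr8, and that assembly gives gene order only. The intervals include the spread between libraries. Group averages deposited by the authors were not used.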

Additional observations from a re-analysis of the deposited data

Results flagged for a closer look

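In 2 of the 36 sets of 5 animals (9 genes in 4 groups) 1 animal lay far from the others by Dixon's ratio, and chance flags about 1 in 20. Ccr2 was at 42.7 CPM in CLP replicate 3, against 21.0 to 26.1 CPM in the other CLP animals. That animal also had the highest summed neutrophil level of the group, 4918 CPM, and the lowest Ccl3 level, 8.83 CPM. Ccl4 was at 0.0704 CPM in Sham + VNS replicate 5, which is 1 count, against 0 in the other 4 animals.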

How the results depend on the processing

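The number of members called stayed at 6 in CLP against Sham and 4 in CLP + VNS against Sham + VNS in every fit that left out 1 library, and at 0 in the other 3 comparisons. The labels do not say whether equal replicate numbers pair animals. Deviations from group means correlated by -0.16 to 0.18 over 22 same-numbered pairs (3 over 0.1). Over 128 pairs of unlike number they correlated by -0.26 to 0.23 (21 over 0.1). Of 17 libraries 4 correlated best with a library of their own number. With so few libraries these correlations cannot exclude pairing. With the replicate block, Ccl7 in CLP + VNS against Sham + VNS was 1.18 (adjusted p = 0.166, no longer called), Cx3cl1 was 0.51 (adjusted p = 0.0244, newly called), Ackr2 was 1.51 (adjusted p = 0.0843, no longer called), and 2109 instead of 4044 of all genes were called there. DESeq2 called 144 genes instead of 4 in CLP + VNS against CLP, and 6 instead of 0 both in Sham + VNS against Sham and in the interaction, none of them a member. Of the calls in CLP against Sham 49.1% were higher, 38.4% by total count alone and 31.9% by limma on TPM, and in CLP + VNS against Sham + VNS 50.9%, 41.4% and 35.1%.

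Besides the adipocyte gene Cfd, signs turned for estimates that had not been called. Cx3cr1 in CLP against Sham was -0.0324 by total count, -0.0782 and -0.0652 by limma on log2(TPM + 0.1) and log2(TPM + 1), and -0.0985 to 0.108 with 1 library left out. The Ccl2 interaction was -0.0143 and -0.0318 by limma, -0.208 with the replicate block and -0.242 to 0.432 with 1 library left out. With 1 library left out, ranges across 0 were -0.219 to 0.0797 (Cx3cr1) and -0.0258 to 0.230 (Ccr2) in CLP + VNS against Sham + VNS, -0.404 to 0.0258 (Ccl2) in CLP + VNS against CLP, -0.591 to 0.0793 (Ccl2) in Sham + VNS against Sham, and -0.567 to 0.176 (Ccl7) and -0.239 to 0.0621 (Cx3cr1) in the interaction. The Ccl4 difference in mean CPM was -0.0655 to 0.0436 in CLP + VNS against CLP and 0.0936 to 0.202 in CLP + VNS against Sham + VNS, where it was called without CLP + VNS replicate 11 (0.202, adjusted p = 0.0317, exact permutation test). The cause was not tested. Cfd in CLP against Sham ran from -2.65 to 0.113, its sign turning without Sham replicate 1. Counts of 0 to 7 limit Ccl4, and of 1 to 39 Ccl20.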
